A study of Mus musculus with 38 samples.

Results

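Ribosome footprints were counted in streptavidin pulldowns of mouse primary cortical neurons whose eIF4G2 had been knocked down, and in the same kind of pulldown from untreated neurons, both at rest. Of the 38 samples of the series, 5 made up the comparison: 2 knockdown pulldowns (titled KD_pd_Rest) and 3 untreated pulldowns (REST_PSD95_pd), chosen by their titles. All 5 cultures carried the lentivirus PSD95-TurboID, a biotin ligase joined to parts of the postsynaptic scaffold PSD95 and induced with doxycycline, and all received cycloheximide for 2 min before 30 min with biotin. The knockdown cultures had in addition been kept for 72 h with 20 nM siRNA against eIF4G2. The untreated neurons received no siRNA, and neurons with a non-targeting siRNA were not analysed here.

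The knockdown and untreated libraries were made in separate experiments, so that knockdown and experiment cannot be told apart. The labels give the knockdown pulldowns the PSD95-TurboID virus but describe them as cytosol region, whereas the untreated pulldowns are described as psd region. The study's methods call its ribosome profiling replicates biological, but no source used here says so of the knockdown libraries in particular, whose spread may be technical. Matched inputs (2 knockdown, 3 untreated), depolarized pulldowns (2 knockdown, 3 untreated, 55 mM KCl for 1 h) and 3 pulldowns treated with the metabotropic glutamate receptor agonist DHPG (100 µM for 10 min, no siRNA) gave values to set beside the pulldown difference. Tetrodotoxin and DL-AP5 preceded DHPG by 2 h, and the labels give the same for KCl, whereas the resting neurons are not said to have received them. Fewer cells of a type and less RNA per cell cannot be told apart in these bulk libraries.

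eIF4G2, also called DAP5, is a relative of the scaffold protein eIF4G1. It keeps the parts that bind eIF4A and eIF3 but lacks the region that binds the cap-binding protein eIF4E, and it is known for starting translation on mRNAs in ways that do not depend on eIF4E, including after upstream open reading frames. In ribosome profiling, each footprint is the piece of mRNA that a ribosome covered, and the pulldown keeps ribosomes close enough to the tagged ligase to be biotinylated. Levels below are CPM values, counts scaled to a common library total with TMM factors, over the coding sequence (CDS) of the longest transcript of each gene, and differences are log2 of knockdown over untreated. "Adjusted p" comes from the quasi-likelihood F test of edgeR, Benjamini-Hochberg adjusted over all genes tested, and genes with an adjusted p under 0.05 are called.

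Short stretches of mRNA are printed first because the results turn on where along each CDS the footprints lay. The first set holds the start codon (capitals) with 12 bases before it and 15 after it, on the mRNA strand of the mouse build GRCm38 (mm10). Eif4g2 is read from a GTG codon (minus strand, chr7:111081545-111081547). The other genes are read from an ATG codon, which lies at chr2:32182512-32182514 (plus) for Prrc2b, chr13:46727471-46727473 (minus) for Nup153, chr12:84996490-84996492 (plus) for Ylpm1, chr11:55409982-55409984 (minus) for Sparc, chr13:37994081-37994083 (minus) for Ssr1 and chr7:45164083-45164085 (plus) for Slc17a7.
Eif4g2: caagccgccaaaGTGgagagtgcgattgca
Prrc2b: catttcatcgcaATGtccgatcgtttgggg
Nup153: ccaggctccgccATGgcctcggaagccgga
Ylpm1: ttcgtttcctatATGtatccgaattggggc
Sparc: gttcccagcatcATGagggcctggatcttc
Ssr1: accggccgtaccATGagactcctcccccgc
Slc17a7: ggcacagccaccATGgagttccggcaggag

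The second set shows the first 30 bases of the coding exon at which the knockdown share of the pulldown counts changed most along the CDS, with the first whole codon in capitals. These boundaries were found from the counts themselves and are descriptions. The stretches lie at chr2:32208640-32208669 for Prrc2b, chr13:46701058-46701087 for Nup153, chr12:85014650-85014679 for Ylpm1, chr7:111075212-111075241 for Eif4g2, chr11:55402042-55402071 for Sparc and chr13:37986022-37986051 for Ssr1.
Prrc2b, from CDS base 1963: GAGcagctgtacaagatgcagcactggcag
Nup153, from CDS base 1528: GTAcagatgacctctctgggcagcacgggc
Ylpm1, from CDS base 1324: ACCatgtctctggatgtgcagctgcgacat
Eif4g2, from CDS base 1642: GAAgccgttgtgactgactatctgaacagt
Sparc, from CDS base 328: GTAtgcagcaatgacaacaagaccttcgac
Ssr1, from CDS base 544: GGCaatgtattccaggatgctgtcttcaat

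Eif4g2 itself checks the labels. Its pulldown level was 366, 392 and 332 CPM in the untreated libraries and 274 and 210 CPM in the knockdown libraries. Both knockdown pulldowns lay below all untreated ones, and the difference was -0.60 (SE 0.189, adjusted p = 0.0452; n = 2 against 3). The exact permutation test over these libraries gave a two-sided p of 0.1, the smallest that 2 against 3 allow. In the inputs the gap was wider, with 500, 534 and 547 CPM in untreated and 267 in both knockdown libraries, a difference of -0.98 (adjusted p = 0.0038). Without the first or the second untreated pulldown, or without either knockdown pulldown, the pulldown call was lost, the difference ranging from -0.82 to -0.42.

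The fall of Eif4g2 lay in the proximal part of its CDS. Before CDS base 1642 the mean knockdown level was 0.416 times the untreated level (93 to 99.6 CPM against 200 to 250 CPM), and after it 1.11 times (118 to 174 CPM against 121 to 143 CPM). The inputs were lower on both sides of this boundary, at 0.487 and 0.582 times. The DHPG pulldowns, which had no siRNA, were at 0.605 times before it (134 to 151 CPM) and 1.84 times after it (224 to 256 CPM). With each CDS divided at its midpoint into a proximal and a distal part, the distal share of the Eif4g2 pulldown counts was 39.4, 41.4 and 45.2% in untreated and 66.8 and 59.2% in knockdown libraries. The paralogs in the list of eIF4F and its partners did not pass the test. Eif4g1 was at -0.39 (adjusted p = 0.231) and Eif4g3 at -0.19 (adjusted p = 0.607), and Eif4g2 was the one member of 19 that was called, beside 9.14% of all genes. Dlg4, which encodes PSD95 and whose counts may include the expressed construct, ranged from 1377 to 3069 CPM in untreated and from 2025 to 2491 CPM in knockdown pulldowns, a difference of 0.17 (SE 0.778, adjusted p = 0.931) within the untreated range.

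Across 13180 genes tested, 551 rose (4.18%) and 654 fell (4.96%) in the knockdown pulldowns, 9.14% in all. Of these, 390 rose and 411 fell by at least 2-fold. The median difference of all genes tested was -0.06, and the median size of the called differences was 1.17. Both knockdown pulldowns lay above all untreated ones for 2751 genes (20.9%) and below all of them for 2982 genes (22.6%). Total counts were 7678561 to 22213551 in the untreated and 11726378 and 14979205 in the knockdown pulldowns, of which 2047169 to 7149160 and 2342174 to 4529319 fell in the CDS used. The count of called genes rests on both knockdown libraries. It was 466 without the first, 386 without the second and 623 without the second untreated pulldown, against 1205 with all 5.

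The increases with the smallest p were in Nup153, Prrc2b and Ylpm1, genes for large nuclear and RNA-associated proteins. Nup153, a nucleoporin of the nuclear pore basket, was at 99.7, 96.6 and 106 CPM in untreated and at 1079.6 and 1117 CPM in knockdown pulldowns. Prrc2b, a member of the PRRC2 family of RNA-associated proteins, was at 392, 488 and 449 CPM against 4929.8 and 5443 CPM. For both genes the knockdown libraries stood about an order of magnitude above every untreated library, with differences of 3.43 for Nup153 (SE 0.2, adjusted p = 6.97e-11) and 3.53 for Prrc2b (SE 0.214, adjusted p = 8.69e-11). Ylpm1, which encodes a nuclear protein with YLP motifs, was at 181, 188 and 232 CPM against 1729.7 and 1660.1 CPM, a difference of 3.06 (SE 0.199, adjusted p = 2.48e-10).

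None of these 3 genes rose in the inputs of the same experiments. The input difference was -0.45 for Nup153 (adjusted p = 0.23), -0.62 for Prrc2b (adjusted p = 0.10) and -0.77 for Ylpm1 (adjusted p = 0.03), the last a fall. Tested as the pulldown difference beyond the input difference, the values were 3.88, 4.15 and 3.83, each with an adjusted p of 5.7e-09. Set against the DHPG pulldowns, the knockdown pulldowns were higher by 3.00 for Nup153, 2.83 for Prrc2b and 3.49 for Ylpm1. The untreated libraries serve in several of these contrasts and the knockdown pulldowns in all of them, so the values are not independent of each other.

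**Figure D1:**
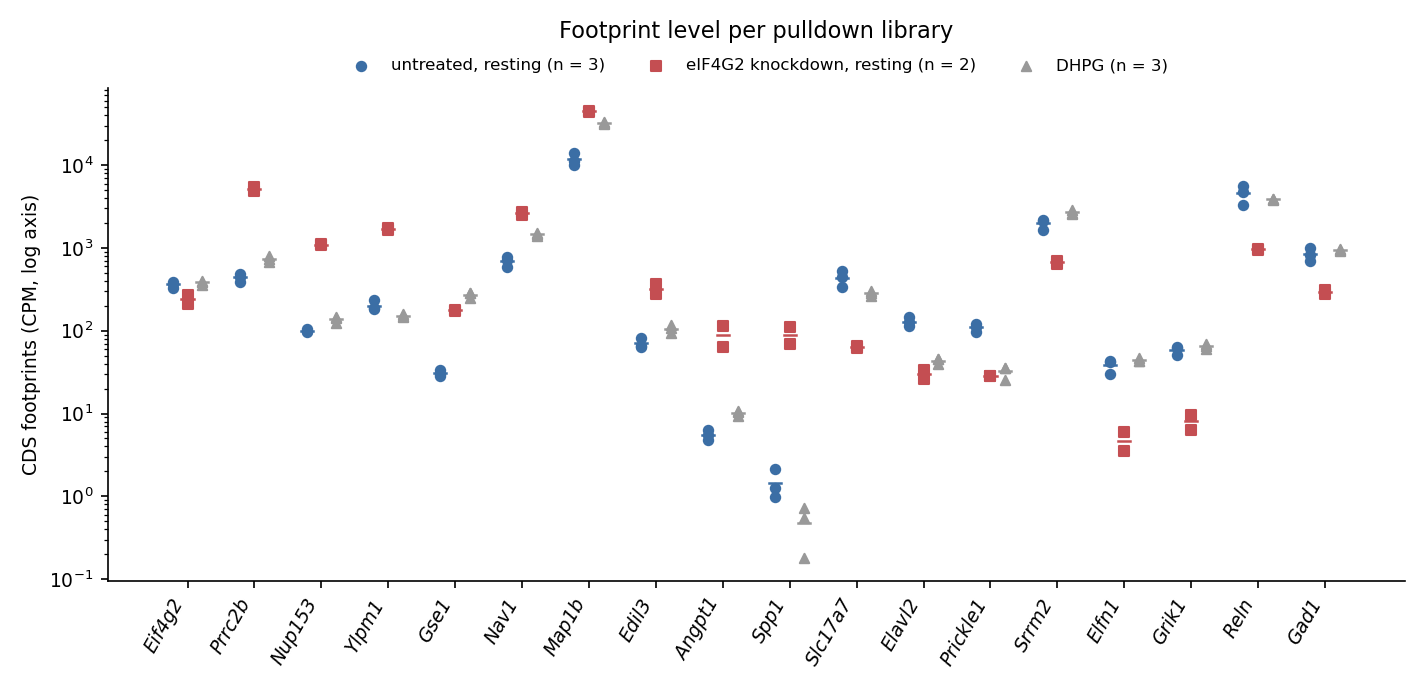
CDS footprint level of 18 genes (CPM, log axis) in each untreated resting pulldown (circles, n = 3), knockdown resting pulldown (squares, n = 2) and DHPG pulldown (triangles, n = 3), with bars at the group means. The knockdown pulldowns of Prrc2b, Nup153 and Ylpm1 lie above both other groups, while for Gse1 the DHPG pulldowns (249 to 288 CPM) lie above the knockdown ones (180 and 172 CPM).

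Gse1, Nav1 and Map1b rose less, and their DHPG pulldowns also stood above the untreated ones. Gse1, a coiled-coil protein found with chromatin regulators, was at 34, 30.2 and 28.6 CPM in untreated and 180 and 172 CPM in knockdown pulldowns, a difference of 2.48 (SE 0.223, adjusted p = 1.69e-07). Its input difference was -0.56 (adjusted p = 0.18), and against DHPG it was lower, at -0.64 (adjusted p = 0.016). Nav1, a neuron navigator that binds microtubule plus ends, was at 585, 718 and 780 CPM against 2510.4 and 2721 CPM. Its difference of 1.89 (SE 0.175, adjusted p = 1.95e-07) stood beside -0.21 in the inputs and 0.82 against DHPG.

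Ttr, Spp1 and Angpt1, genes for secreted proteins, had the largest increases among called genes with a mean of at least 10 CPM. In Spp1, Angpt1 and Edil3 the inputs rose as well, and in Pdpn they did not pass the test. Spp1, the secreted phosphoprotein osteopontin, was at 2.12, 1.26 and 0.968 CPM in untreated and 69.8 and 110 CPM in knockdown pulldowns (difference 5.75, SE 0.645, adjusted p = 1.25e-05). The inputs rose by 4.00 (adjusted p = 0.00028), from 2.44 to 9.74 CPM in untreated to 88 and 88.4 CPM in knockdown libraries. Angpt1, a ligand of the Tie2 receptor, was at 6.35, 5.46 and 4.84 CPM against 64.3 and 114 CPM (difference 3.94, SE 0.366, adjusted p = 1.95e-07) with an input difference of 2.04 (adjusted p = 0.00095). Ttr, which encodes the thyroid hormone carrier transthyretin, reached 156 and 214 CPM against at most 7.75 CPM. Its difference of 6.56 (SE 1.48, adjusted p = 0.0156) was lost without the second knockdown or without the first or second untreated pulldown. Pdpn, the membrane glycoprotein podoplanin, was at 13.4, 3.15 and 2.42 CPM against 66.6 and 89.9 CPM (difference 3.46, adjusted p = 0.00271), with 0.43 in the inputs (adjusted p = 0.80). Edil3, a secreted protein that binds integrins, was at 66.3, 63.4 and 82.3 CPM against 280 and 366 CPM (difference 2.18, SE 0.197, adjusted p = 1.69e-07), with 0.74 in the inputs (adjusted p = 0.03).

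The decreases with the smallest p included the neuronal genes Slc17a7 and Elavl2, which fell in the inputs too. Slc17a7, the vesicular glutamate transporter VGLUT1, was at 444, 339 and 525 CPM in untreated and 65.9 and 61.4 CPM in knockdown pulldowns (difference -2.79, SE 0.3, adjusted p = 1.67e-06). In the inputs it went from 227 to 268 CPM down to 55.8 and 45.9 CPM, a difference of -2.33 (adjusted p = 7.7e-05). Every knockdown library of either fraction lay below every untreated one. Elavl2, a neuronal RNA-binding protein of the Hu family, was at 127, 146 and 114 CPM against 33.5 and 26.3 CPM (difference -2.12, adjusted p = 1.02e-05), with -1.79 in the inputs (adjusted p = 0.00014). In the DHPG pulldowns Elavl2 was also low, at 39.7 to 45.9 CPM, and the knockdown pulldowns did not pass the test against them (-0.53, adjusted p = 0.097).

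Prickle1, a planar cell polarity protein, was likewise low in both. It was at 112, 122 and 95.9 CPM in untreated, 28.3 and 28.1 CPM in knockdown and 25.7 to 35.8 CPM in DHPG pulldowns, with a knockdown difference of -1.99 (adjusted p = 5.73e-06) and -0.20 against DHPG (adjusted p = 0.54). Srrm2, a scaffold of nuclear speckles, was at 2156, 2125 and 1666 CPM against 644 and 705 CPM (difference -1.58, adjusted p = 9.24e-06), with -1.45 in the inputs. Elfn1, a synaptic adhesion protein, was at 30.2, 42.2 and 43.6 CPM against 5.93 and 3.51 CPM (difference -2.99, adjusted p = 8.44e-06). Grik1, a kainate receptor subunit, was at 50.4, 64.3 and 62.5 CPM against 6.38 and 9.64 CPM (difference -2.93, adjusted p = 1.97e-05). Both were lower in the inputs as well, by -1.72 for Elfn1 (adjusted p = 0.0028) and -1.52 for Grik1 (adjusted p = 0.011).

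Nxph2, Dcn, Col14a1, Pdgfra and Slc35g2 had the largest decreases among called genes with a mean of at least 10 CPM. Nxph2, a neurexophilin that binds neurexins, went from 15.5 to 21.7 CPM down to 0.456 and 1.32 CPM (difference -4.55, adjusted p = 0.000195), and Slc35g2 from 40.2 to 43.7 CPM down to 5.7 and 4.38 CPM (difference -3.03, adjusted p = 0.000154). Dcn, the matrix proteoglycan decorin, ranged from 5.81 to 27.6 CPM in untreated and was at 1.14 and 1.32 CPM in knockdown pulldowns. Its difference of -4.10 (adjusted p = 0.0273) was lost without either knockdown pulldown or without the second untreated one. Col14a1, a fibril-associated collagen, was at 12.1 to 23.9 CPM against 0 and 2.63 CPM (difference -4.03, adjusted p = 0.00623), a call lost without the first knockdown pulldown. Pdgfra, a growth factor receptor of oligodendrocyte precursors, ranged from 36.3 to 193 CPM against 13.9 and 14.5 CPM (difference -3.15, adjusted p = 0.00251), and the call was lost without either knockdown pulldown.

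In the inputs of the same kind of neurons 249 genes rose and 264 fell, 3.89% of the 13180 tested. Whether inputs or pulldowns had more calls depended on the fit, as with the groups of each contrast alone the inputs had 1979 and the pulldowns 1774, and without either knockdown input 58 were left. Of the 551 genes that rose in the pulldowns, 94 also rose in the inputs and 14 fell there. Of the 654 that fell in the pulldowns, 158 also fell in the inputs. The median input difference was 0.29 for the first set and -0.62 for the second, against -0.02 over all genes tested. The pulldown difference beyond the input difference was called in 136 genes (1.03%), 134 of them higher (1.02%) and 2 lower (0.0152%), with a median of -0.11 over all genes. With the groups of the contrast alone 255 were higher and 92 lower, and without the first or second knockdown input 53 and 46 were called, all higher.

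**Figure D2:**
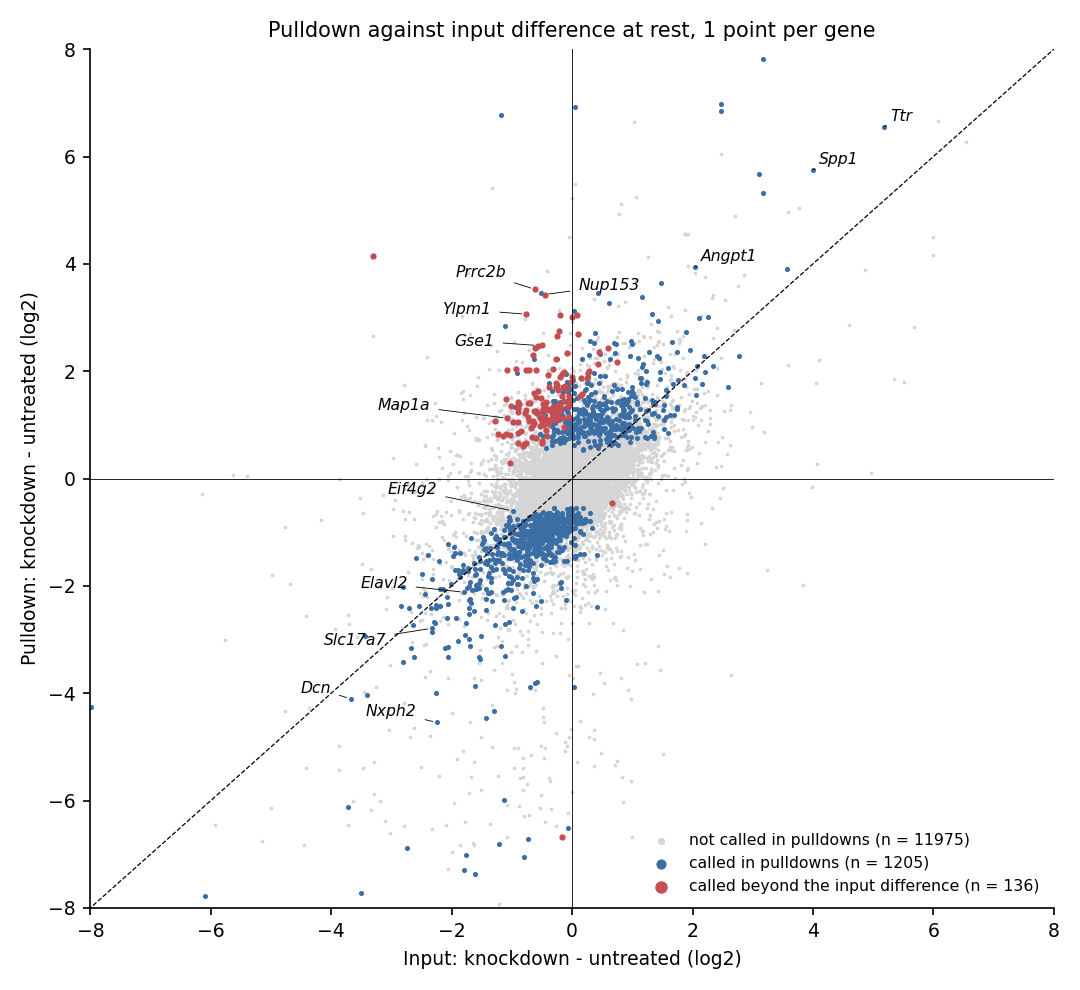
Log2 difference of knockdown and untreated libraries in pulldowns (y axis) against the same difference in inputs (x axis), 1 point per gene of 13180, with the dashed line where both are equal. Prrc2b, Nup153, Ylpm1 and Gse1 lie high in the pulldowns at input differences below 0, while Slc17a7 and Elavl2 lie low in both.

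The 2 genes lower beyond the input were Chchd5 and Nrbp1. Chchd5, a small mitochondrial protein, had 1.45, 4.41 and 1.45 CPM in untreated pulldowns and none in either knockdown pulldown (adjusted p = 0.041 beyond the input), and its call in pulldowns was lost without the first knockdown pulldown. Nrbp1, a pseudokinase-like adaptor, was at 113, 108 and 115 CPM against 84.6 and 81.5 CPM, which did not pass the test in pulldowns (-0.45, adjusted p = 0.14), while its inputs rose by 0.66 (adjusted p = 0.04), so that the difference between fractions was -1.11 (adjusted p = 0.032).

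Genes with a long CDS rose more often. Among 999 genes with a CDS of at least 4000 bases, 14.7% rose and 3.9% fell, whereas among 1398 genes under 500 bases 1.22% rose and 4.86% fell. The median pulldown difference went from -0.34 in the shortest class over -0.21, -0.07 and 0.07 to 0.29 in the longest, and the input medians from -0.21 to 0.08. Beyond the input, 6.51% of the longest and 0.429% of the shortest class were called higher. The median CDS was 2493 bases in the genes that rose, 1528.5 in those that fell and 1392 over all tested. Genes with a very short annotated 5′ UTR, or none, were left out of the search for an ATG in it. At least 1 ATG was held by 65.8% of the 518 remaining genes that rose, by 49.6% of the 631 that fell and by 55.0% of all 12529. The median 5′ UTR lengths were 240, 209 and 201 bases, and a longer 5′ UTR has more room for an ATG. These are descriptions of the called genes, and the number of counts behind a gene, which also grows with CDS length, was not separated from them. The length of the 5′ UTR was not separated from its holding an ATG.

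In some of the genes that rose, the gain did not cover the whole CDS. For the test described further on, 342 of them had enough counts on both sides of the CDS midpoint. Of these, 118 moved toward the distal part and 26 toward the proximal part (9.16% and 3.56% over all genes so tested). The others were called in neither direction. These genes were called and then tested on the same CDS counts, so the shares are not independent of that choice. The genes that follow were chosen after their profiles were seen. In Prrc2b, the level before CDS base 1963 was 113 to 170 CPM in untreated and 110 to 128 CPM in knockdown pulldowns, a ratio of means of 0.822. After that base it was 279 to 318 CPM against 4820 to 5315 CPM, a ratio of 17.0. In Nup153 the ratio was 0.905 before base 1528 and 14.5 after it, and in Ylpm1 0.49 before base 1324 and 10.4 after it. Before the boundary the knockdown libraries overlapped the untreated ones in Prrc2b and Nup153 and lay below them in Ylpm1, and after it they lay above them in all 3. The input ratios on the 2 sides of the boundary were close to each other, 0.708 and 0.616 in Prrc2b and 0.767 and 0.719 in Nup153.

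**Figure D3:**
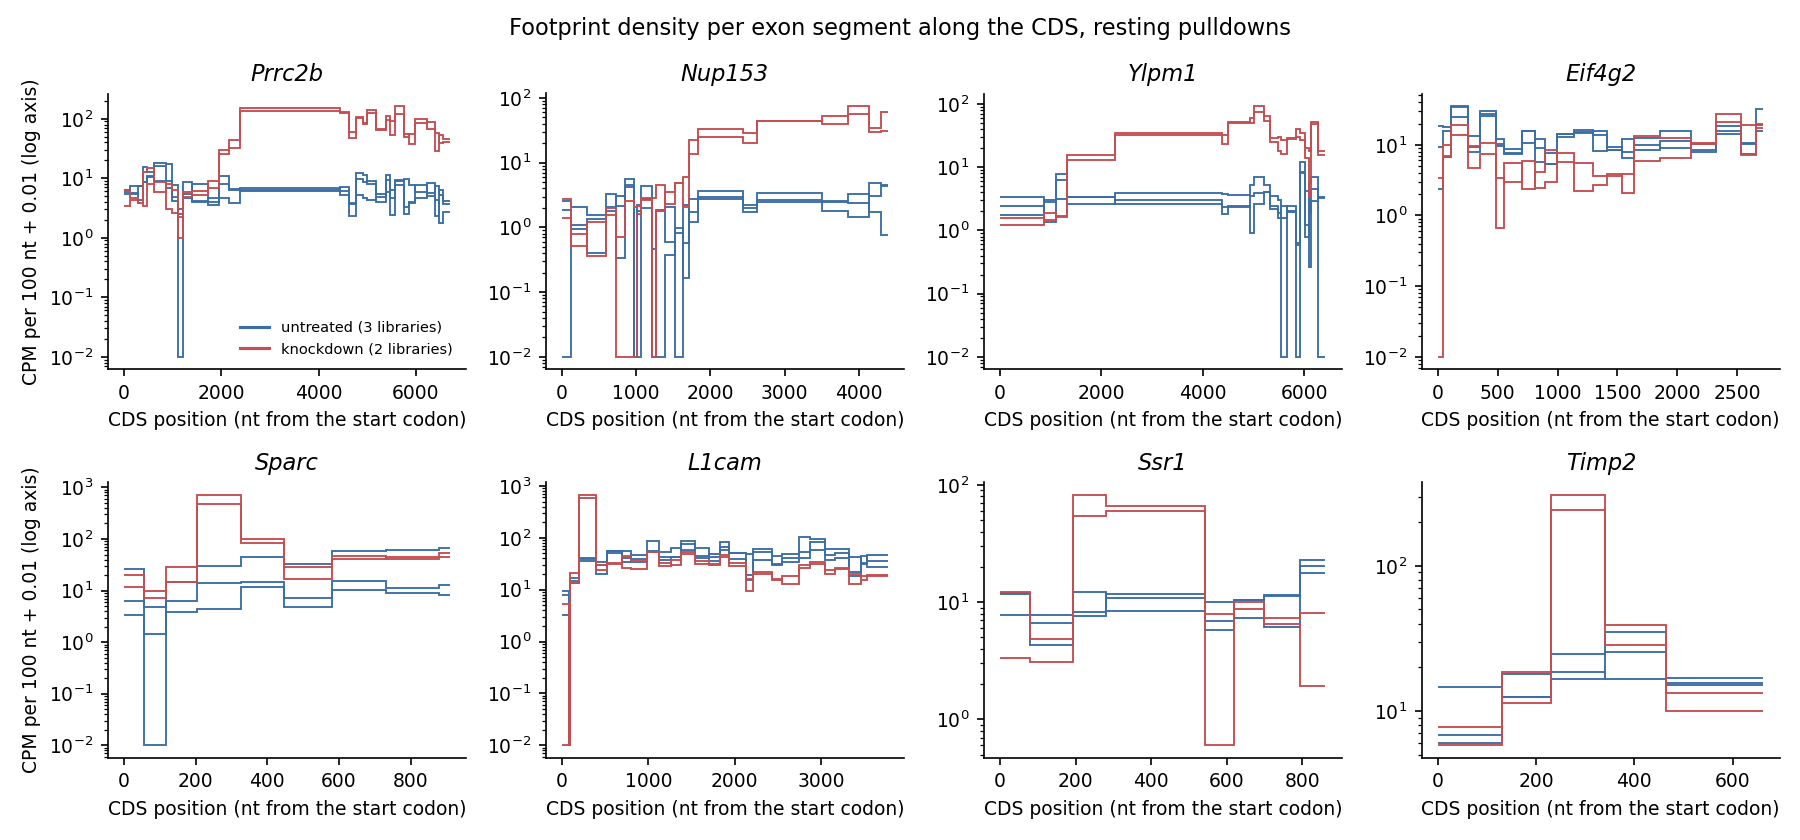
Footprint density (CPM per 100 bases plus 0.01, log axis) of each exon segment along the CDS (bases from the start codon) in the 3 untreated (blue) and 2 knockdown (red) resting pulldowns. In Prrc2b, Nup153 and Ylpm1 the red lines lie above the blue ones from bases 1963, 1528 and 1324 on. In 1 later exon each of Nup153 and Ylpm1 they overlap. The red lines of Prrc2b and Nup153 already lie above in the exon just before these bases. In L1cam, Ssr1 and Timp2 they stand above the blue ones in the exons just before bases 398, 544 and 341 but not in the first exons.

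Other genes had a boundary of the same kind. Ncor1, a nuclear receptor corepressor, had ratios of 0.972 before base 1916 and 6.28 after it. Tnrc18, a protein with a trinucleotide repeat tract, had 1.41 and 7.19 around base 2032, and Nbr1, a selective autophagy receptor, 1.18 and 7.1 around base 1865. Shank1, a master scaffold of the postsynaptic density, had 0.982 and 4.14 around base 2699. Map1b, the microtubule-associated protein of growing neurites, had 1.05 and 3.91 around base 511. In depolarized pulldowns the ratios before and after were 0.637 and 4.87 for Prrc2b, 0.515 and 5.23 for Nup153, 0.946 and 3.67 for Map1b and 1.31 and 1.34 for Shank1. DHPG pulldowns over untreated ones had 0.679 and 2.12 in Prrc2b, 0.473 and 1.68 in Nup153, 0.635 and 2.76 in Ncor1, 0.864 and 3.14 in Tnrc18, 0.849 and 3.13 in Nbr1, 1.46 and 2.74 in Shank1 and 1.87 and 2.77 in Map1b. In these 7 genes the mean DHPG level after the boundary was also above the untreated one, whereas Ylpm1 had 0.443 and 0.832.

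A test with each CDS divided at its midpoint, chosen after the data were seen, gave the distal-over-proximal change for 5252 genes with at least 50 counts in every pulldown. It was called toward the distal part in 481 genes (9.16%) and toward the proximal part in 187 (3.56%), 12.7% in all, with a median of 0.24. In the inputs 1026 of 7340 genes (14%) moved toward the distal part and 190 (2.59%) toward the proximal one, with a median of 0.29. Without the first or second knockdown pulldown the calls in pulldowns numbered 293 and 252, against 668. Prrc2b had the smallest p, its distal share going from 66.7, 58 and 59.4% to 94.6 and 95.4% (change 3.59, SE 0.204, adjusted p = 2.5e-10). Nbr1 (2.71), the protease inhibitor cystatin C gene Cst3 (2.49), Ylpm1 (2.4), Ly6h (2.61) and Prrc2a (2.09) were next in this direction.

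In the opposite direction, the genes with the smallest p were Sparc, Timp2, L1cam, Chga, Ssr1 and P4hb, whose proteins enter the endoplasmic reticulum (ER). In the first exon of each the groups overlapped, and the gain lay mainly in the 1 or 2 exons just before the boundary. Entry into the ER was not particular to this direction. The proteins of Cst3 and Ly6h, named above for the distal part, enter it too. Sparc, a secreted matrix protein, had a distal share of 66.6, 54.6 and 59.8% in untreated and 19.8 and 13.9% in knockdown pulldowns (change -2.97, SE 0.244, adjusted p = 1.4e-07). Before base 328 its level was 10.7 to 67.4 CPM against 626 to 912 CPM, a ratio of 22, and after it the ratio was 2.05. Most of this lay in bases 206 to 327, with a density of 30.4, 13.8 and 4.37 CPM per 100 bases in untreated and 478 and 728 CPM per 100 bases in knockdown pulldowns. Timp2, a secreted inhibitor of metalloproteinases, had a ratio of 6.75 before base 341 and 1.02 after it (change -2.72), and Ssr1, a subunit of the translocon-associated complex, 4.66 before base 544 and 0.569 after it (change -3.03). In Timp2 the density of bases 232 to 340 was 16.6 to 24.6 CPM per 100 bases against 242 and 310, while bases 1 to 130 had 5.96 to 14.7 against 5.79 and 7.76 CPM per 100 bases. In Ssr1 the gain lay in bases 193 to 543, and bases 80 to 192 had 4.28 to 7.81 against 4.84 and 3.1 CPM per 100 bases.

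In L1cam, a neuronal adhesion molecule, the gain lay in 1 exon. Before base 398, which is 10.5% of its CDS, it was at 94.9 to 102 CPM in untreated and 1192 to 1383 CPM in knockdown pulldowns, a ratio of 13.1, and after it at a ratio of 0.59. Bases 198 to 397 had a density of 36, 40.1 and 39.2 CPM per 100 bases against 583 and 684, whereas bases 92 to 197 had 17, 14.9 and 13.2 against 20.9 and 14.1 CPM per 100 bases, which overlapped. Its total did not pass the test (0.35, adjusted p = 0.261). Chga, the granin of dense-core vesicles, had ratios of 3.34 before base 416 and 0.349 after it, and P4hb, a protein disulfide isomerase, 4.79 before base 359 and 0.546 after it. Edil3 had 15.7 before base 470 and 1.47 after it. In the depolarized pulldowns the ratios before the same bases were 5.73 for Sparc, 1.05 for L1cam, 0.856 for Timp2, 0.744 for Ssr1, 0.755 for P4hb and 1.17 for Edil3. Whether the profiles differ between resting and depolarized neurons was not tested.

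Of lists of ER and lysosomal genes, these members were called, beside 3.56% of all genes toward the proximal part. In the lysosome list, 8 of 22 members tested moved toward the proximal part and 1 toward the distal part, with a median of -0.71 against 0.24 over all genes and 0.18 for the same list in the inputs. They included Psap (-1.84), the precursor of the saposins, and the cathepsins Ctsl (-1.85), Ctsb (-1.63), Ctsa (-1.61) and Ctsd (-0.78). The member that moved the other way was Npc2 (3.92), a lysosomal carrier of cholesterol. In the unfolded protein response list, 6 of 17 moved toward the proximal part and 1 toward the distal part, among the former the ER chaperones Hspa5 (-1.27) and Hsp90b1 (-1.28). In the ER translocon and glycosylation list the counts were 3 and 1 of 27. The median was -0.20 in the unfolded protein response list and 0.29 in the ER translocon list.

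Summed over the CDS, these lists held at most 2 calls in each direction, beside 4.18% of all genes higher and 4.96% lower. In the ER translocon list 2 of 31 rose, Ssr1 (79.3, 94.7 and 86.2 CPM against 240.1 and 273 CPM, difference 1.54, adjusted p = 4.16e-05) and Ssr2 (1.02, adjusted p = 0.0015), and Ddost, a subunit of the oligosaccharyltransferase, fell (-0.80), a call lost in 4 of the 5 fits that left out a pulldown. In the lysosome list 2 of 28 rose and 2 fell, and 3 of these 4 calls were lost without 1 of the knockdown pulldowns. Npc2, which kept its call, was the largest of them, at 26.1, 34.7 and 28.6 CPM against 135 and 248 CPM (2.65, adjusted p = 4.33e-05). In the unfolded protein response list 2 of 21 fell, Hyou1 (-0.67) and Pdia4 (-0.74), both lost without either knockdown pulldown and without the first or second untreated one, and the median was -0.35.

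Calls in the list of postsynaptic density scaffolds were increases, and all but 1 in the presynaptic list were decreases. The receptor lists did not follow the scaffolds, as their calls were decreases. Of 31 glutamate receptors and auxiliary subunits 5 fell, and of 15 GABA receptors and gephyrin 2 fell, beside 4.96% of all genes. Of these calls, that of Grik1 was kept and the others were lost without 1 of the knockdown pulldowns. Of 34 postsynaptic density scaffolds tested, 7 rose, beside 4.18% of all genes, and the others did not pass the test (7 by the likelihood ratio test and 8 by DESeq2), with a median of 0.24 against -0.06 over all genes and -0.11 for the same list in the inputs. Shank1 was at 140, 170 and 138 CPM in untreated and 341 and 415 CPM in knockdown pulldowns (1.31, SE 0.197, adjusted p = 0.000102) and at -0.32 in the inputs (adjusted p = 0.44). Its groups did not overlap, which held for all 551 genes that rose and, in this direction, for 20.9% of all genes. Cnksr2 (1.02), Lrrc7 (0.98), Dlgap1 (0.95) and Tnik (0.86) were among the 7. The calls of Shank1, Cnksr2 and Lrrc7 were kept without either knockdown pulldown, and the other 4, Shank2 (1.03), Dlgap1 and Tnik among them, were lost without 1 of them. Against the DHPG pulldowns, Shank1 (0.27, adjusted p = 0.28), Shank2 (0.01), Lrrc7 (0.26), Dlgap1 (-0.12) and Tnik (-0.08) did not pass the test, and Cnksr2 was at 0.55 (adjusted p = 0.021).

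Of 32 presynaptic proteins, 10 fell and 1 rose (4.96% and 4.18% over all genes), with a median of -0.52 in pulldowns and -0.52 in inputs. Beside Slc17a7, Cplx1, a complexin that clamps vesicle fusion, was at 57.7, 77.7 and 61.5 CPM against 17.6 and 3.95 CPM (-2.52, adjusted p = 0.00122). Snap25, a SNARE protein, was at 212, 215 and 217 CPM against 109 and 75.4 CPM (-1.23, adjusted p = 0.0249), and Syp, the vesicle protein synaptophysin, at -1.03. Of the 11 calls, 9 were lost without 1 of the knockdown pulldowns, and those of Slc17a7 and Cplx1 were kept. The member that rose was Slc17a6, the other vesicular glutamate transporter VGLUT2, at 115, 91.6 and 135 CPM against 251 and 257 CPM (1.15, adjusted p = 0.00685), and it rose in the inputs as well (1.56, adjusted p = 0.0014).

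**Figure D4:**
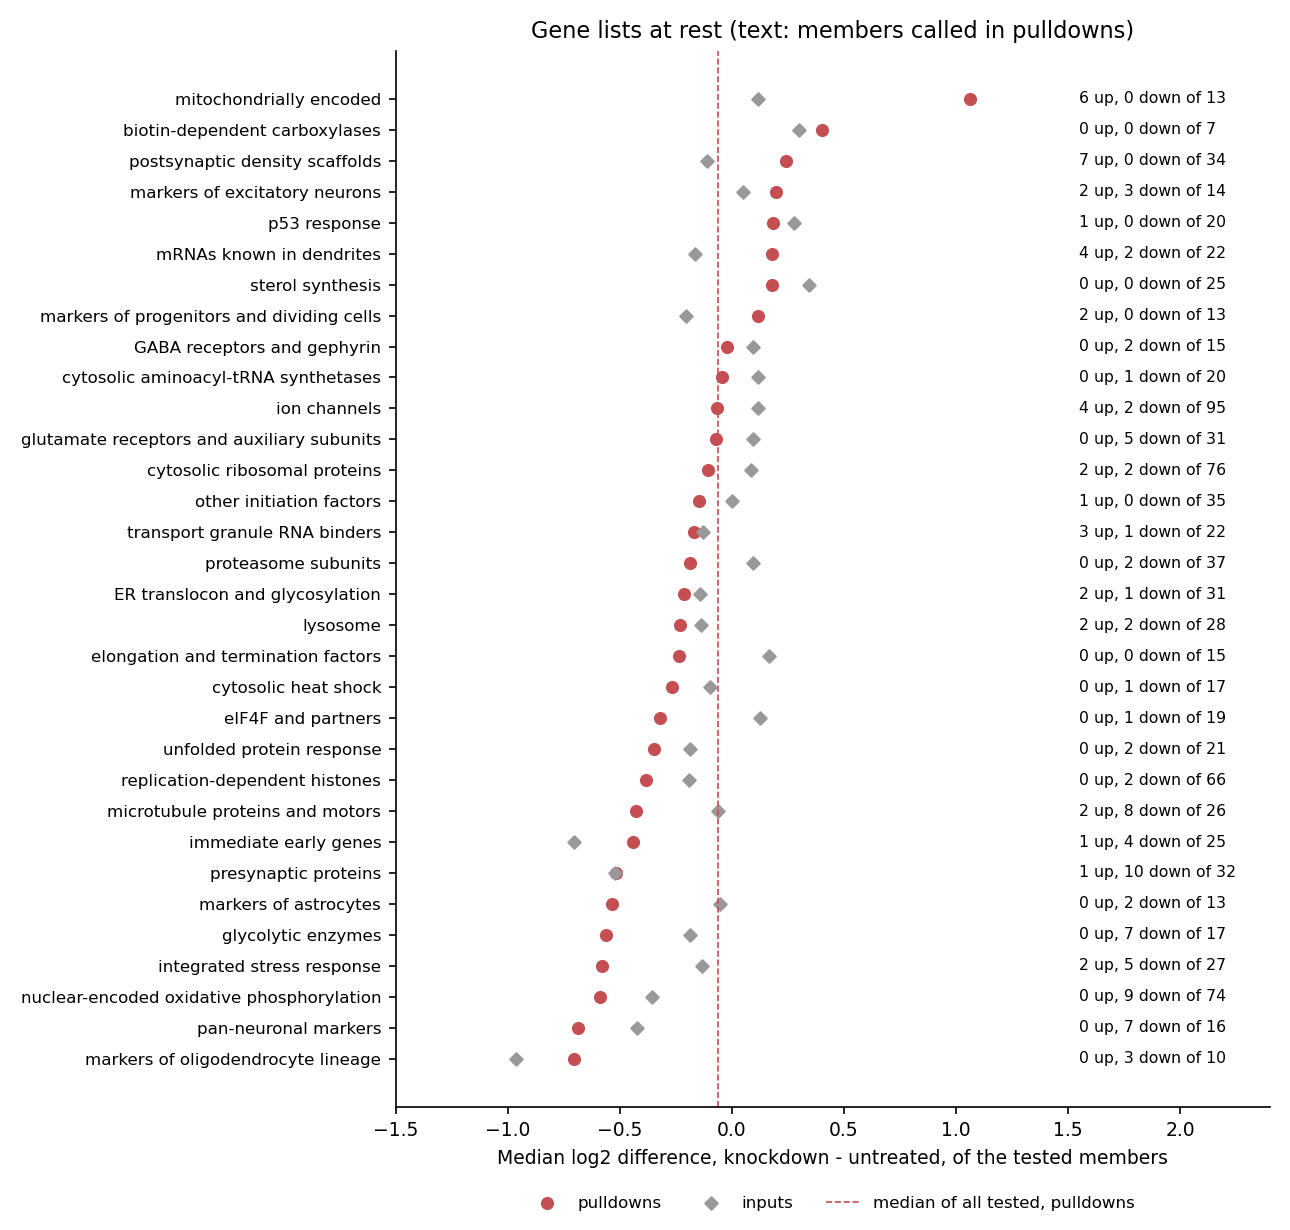
Median log2 difference of the tested members of 32 gene lists in pulldowns (circles) and inputs (diamonds), with the median of all genes tested in pulldowns (-0.06, dashed line) and, at the right, the members called in pulldowns. Mitochondrially encoded genes (1.06) and postsynaptic density scaffolds (0.24) lie above the line in pulldowns, and pan-neuronal markers, nuclear-encoded oxidative phosphorylation and glycolytic enzymes below it.

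Mitochondrially and nuclear-encoded respiratory chain genes were called in opposite directions. Of the 13 genes encoded in mitochondrial DNA and translated inside mitochondria, 6 rose (4.18% over all genes), with a median of 1.06 in pulldowns and 0.12 in inputs. mt-Nd2, a subunit of complex I, was at 153, 273 and 192 CPM against 541 and 623 CPM (1.47, SE 0.345, adjusted p = 0.00976), and mt-Nd4, mt-Co3, mt-Nd5, mt-Atp6 and mt-Cytb followed with 1.29, 1.26, 1.2, 1.10 and 1.06. All 6 calls were lost without 1 of the knockdown pulldowns, that of mt-Nd2 without the second and the others without either. In DHPG pulldowns mt-Nd2 was at 582 to 1012 CPM, and the knockdown pulldowns did not pass the test against them (-0.54, adjusted p = 0.29). Of 74 nuclear-encoded oxidative phosphorylation genes, 9 fell (4.96% over all genes) and the others did not pass the test, with a median of -0.59 and -0.36 in the inputs. Ndufa6 (-1.31) and Ndufa12 (-1.22) of complex I and Atp5j2 (-1.21) of the ATP synthase were among those that fell, and all 9 calls were lost without 1 of the knockdown pulldowns.

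Of 17 glycolytic enzymes 7 fell, beside 4.96% of all genes, with a median of -0.56 in pulldowns and -0.19 in inputs. Eno2, the neuronal enolase, was at 362, 347 and 367 CPM against 171 and 151 CPM (-1.17, SE 0.177, adjusted p = 0.000104), well outside the narrow untreated range. Pgk1 (-0.87), Tpi1 (-0.87), Ldhb (-0.80), Gpi1 (-0.64), Pgam1 (-0.56) and Pkm (-0.54) were the others. The call of Eno2 was kept under every alternative, and the other 6 were lost without either knockdown pulldown.

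Among microtubule proteins and motors 2 rose and 8 fell of 26, beside 4.18% and 4.96% of all genes. The 2 that rose were Map1b and Map1a, which encode large microtubule-associated proteins. Map1b was at 10027, 11356 and 13886 CPM in untreated and 44558 and 45656 CPM in knockdown pulldowns (1.92, SE 0.242, adjusted p = 1.37e-05), while the DHPG pulldowns, at 31739 to 33279 CPM, also stood above the untreated ones. Map1a was at 2416, 2952 and 5300.0 CPM against 7528 and 8185 CPM (1.13, adjusted p = 0.00253), fell in the inputs (-1.08, adjusted p = 0.011) and did not pass the test against DHPG (0.18, adjusted p = 0.59). Its pulldown call was lost with the trend with CDS length removed and with the groups of the contrast alone. Those that fell included Dctn1 of dynactin (-1.11), the kinesins Kif5a (-0.97), Kif5c (-0.83) and Kif1a (-0.79), and Map2 (-0.71). Of the 10 calls, 7 were lost without 1 of the knockdown pulldowns, and those of Map1b, Map1a and Dctn1 were kept.

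The lists of the translation machinery are read beside the 4.18% of all genes that rose and the 4.96% that fell. Of 35 other initiation factors 1 rose, Eif5b, the factor that joins the ribosomal subunits, at 346, 202 and 633 CPM against 1585 and 1474 CPM (1.95, adjusted p = 0.000259), with -0.17 in the inputs, a call lost with the groups of the contrast alone. Of 76 cytosolic ribosomal protein genes tested 2 rose and 2 fell, with a median of -0.11, all 4 calls were lost without 1 of the knockdown pulldowns, and their reads may be shared with near-identical copies. Of 22 RNA-binding proteins of transport granules 3 rose, among them Cpeb4 (1.11) and Pum2 (0.88), which repress or time translation through the 3′ UTR, and Fxr2 (-0.83) fell, a call lost without either knockdown pulldown. In the integrated stress response list 2 of 27 rose and 5 fell. Ppp1r15b (1.2), a subunit of the eIF2α phosphatase, and Ddit4 (1.07) were the former, and Atf5 (-1.69), Cebpb (-1.29), Slc3a2 (-1.28), Cebpg (-1.27) and Psat1 (-0.84) the latter. Of these 7 calls, 6 were lost without 1 of the knockdown pulldowns, and that of Slc3a2 was kept.

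Genes reported elsewhere as eIF4G2 targets gave 0 calls of 9 tested by edgeR's quasi-likelihood test, beside 9.14% of all genes, so a list this short cannot be told apart from the rest. At an unadjusted p under 0.05, 1 was higher and 2 were lower, and the likelihood ratio test and DESeq2 called 0. Apaf1, an adaptor of apoptosis, was at 44.4, 27.9 and 66.3 CPM against 75.2 and 67.5 CPM (0.63, adjusted p = 0.201), and the cell cycle inhibitor Cdkn1b at 62.9, 109 and 84.7 CPM against 54.3 and 50.4 CPM (-0.73, adjusted p = 0.193). The genes whose 5′ leaders the study placed in reporters, which were chosen on samples of this series, gave 0 calls of 11 and 0 of 7 tested, none of them at an unadjusted p under 0.05 and none by the other tests. All but Polg and Mtif2 had fewer than 100 counts in each of the 5 pulldowns, such as Nsun3 with 1.06, 0 and 0.968 CPM against 3.42 and 3.07 CPM.

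Markers of cell types moved with the comparison. The summed level of 13 markers of inhibitory neurons was 5176 to 8607 CPM in untreated and 1705 and 1797 CPM in knockdown pulldowns, and in the inputs 3236 to 4994 CPM against 1614 and 1617 CPM, with Pvalb and Vip at 0 in the knockdown pulldowns. Reln alone made up most of the pulldown sums. Of 12 tested 5 fell, beside 4.96% of all genes. Reln, the extracellular protein reelin, was at 3349, 5625 and 4689 CPM against 981 and 949 CPM (-2.26, adjusted p = 0.000112), Slc32a1, the vesicular GABA transporter, at 481, 893 and 631 CPM against 164 and 165 CPM (-2.05, adjusted p = 7.9e-05), and Gad1, a GABA-synthesizing enzyme, at 704, 1012 and 812 CPM against 311 and 278 CPM (-1.54, adjusted p = 0.000203). No knockdown value of these 3 reached the untreated range, in pulldowns or inputs. Sst and Gad2 were the other members that fell, and their calls were lost without the second knockdown pulldown, that of Sst also without the first.

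Markers of excitatory neurons did not move one way, and their sum was 1619 to 1967 CPM against 1547 and 1633 CPM. Slc17a7, Fezf2 (-2.42), a fate factor of deep-layer neurons, and Tle4 (-1.23) fell, whereas Neurod1 (1.88) and Slc17a6 rose. Without 1 of the knockdown pulldowns the calls of Tle4, Neurod1 and Slc17a6 were lost. The pan-neuronal markers summed to 10233 to 10724 CPM against 9125 and 9301 CPM, and 7 of 16 fell, beside 4.96% of all genes, and 6 of these 7 calls were lost without 1 of the knockdown pulldowns. Astrocyte markers summed to 923 to 1943 CPM against 943 and 1074 CPM, and fibroblast and vessel markers to 164 to 457 CPM against 197 and 223 CPM, both within the untreated range. Of 13 astrocyte markers tested 2 fell and none rose, Slc1a2, the glutamate transporter GLT-1, at 498, 492 and 330.2 CPM against 128 and 87.2 CPM (-2.05, adjusted p = 0.000352), a call kept under every alternative, and Ndrg2 (-1.25), whose call was lost without either knockdown pulldown. Of 9 fibroblast and vessel markers 1 fell, Dcn. Oligodendrocyte lineage markers were at 176 to 577 CPM against 143 and 169 CPM, and 3 of 10 fell, Pdgfra (-3.15), Gpr17 (-3.86) and Cspg4 (-1.84), all lost without either knockdown pulldown. Microglial markers were low in all libraries, 13.2 to 27.1 CPM against 27.6 and 31.9 CPM, with 6 of 16 at 0 in every untreated pulldown and 3 (P2ry12, Tmem119 and Aif1) at 0 in both knockdown ones. Of 10 tested 3 rose and 1 fell (4.18% and 4.96% over all genes), and 6 lay above all untreated pulldowns (20.9% over all genes). The likelihood ratio test called 6 higher and 1 lower, and DESeq2 called 1 higher and 1 lower. C1qa, a complement component, was at 0, 0 and 0.484 CPM against 4.56 and 3.51 CPM (adjusted p = 0.022). Laptm5, a lysosomal membrane protein of blood cells, had no count in untreated pulldowns and 3.19 and 3.07 CPM in knockdown ones (adjusted p = 0.0151), and the protease gene Ctss none against 2.28 and 3.51 CPM (adjusted p = 0.0323). All 3 calls were lost without either knockdown pulldown and without the first or second untreated one, and those of Laptm5 and Ctss also by DESeq2. Cd68, a macrophage glycoprotein, fell, from 10.6 to 21.3 CPM to 2.51 and 7.45 CPM (adjusted p = 0.0364). This call was lost without the first knockdown pulldown and without the second or the third untreated one. In the inputs the summed level was 13.4 to 32.2 CPM against 39 and 40.7 CPM, with Itgam, Trem2 and Tyrobp called higher. Markers of progenitors and dividing cells summed to 347 to 606 CPM against 733 and 752 CPM, and Mki67 (1.42) and Pcna (0.81) were called. Both calls were lost without either knockdown pulldown, that of Pcna also without the second or the third untreated one, and the inputs overlapped, at 438 to 689 CPM against 520 and 535 CPM. The part of these cell types in the differences of single genes was not tested. In the inputs Gad1 fell by 1.21 on the log2 scale (adjusted p = 0.005), Slc32a1 by 1.54 (adjusted p = 0.0034) and Reln by 1.12 (adjusted p = 0.046).

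Where the reads lay was compared per library. Footprints in the 5′ UTR were 5.71, 10.3 and 6.54% of 5′ UTR plus CDS counts in untreated and 5.48 and 6.34% in knockdown pulldowns, so the groups overlapped (two-sided exact permutation p = 0.6). In inputs they were 16.6, 22.5 and 20.6% against 15.5 and 15.5% (exact p = 0.2), and the DHPG inputs were at 15.7 to 16.8%. The 3′ UTR share was 2.60, 2.61 and 3.65% of 3′ UTR plus CDS counts in untreated and 5.51 and 5.77% in knockdown pulldowns, without overlap (exact p = 0.1, the smallest that 2 against 3 allow). The DHPG pulldowns, at 4.51 to 5.68%, overlapped the knockdown ones. The inputs were at 1.96 to 2.17% in untreated, 2.33 to 2.44% in knockdown and 2.55 to 2.71% in DHPG libraries. The distal share of all CDS counts was 59.8, 57.6 and 60.2% against 62.7 and 61.8% in pulldowns and 45.9, 43.2 and 44.1% against 48.7 and 48.8% in inputs (exact p = 0.1 for each). The DHPG pulldowns, at 66.1 to 67%, lay above both groups of pulldowns. The DHPG inputs, at 46.6 to 46.8%, lay between the untreated and the knockdown inputs.

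**Figure D5:**
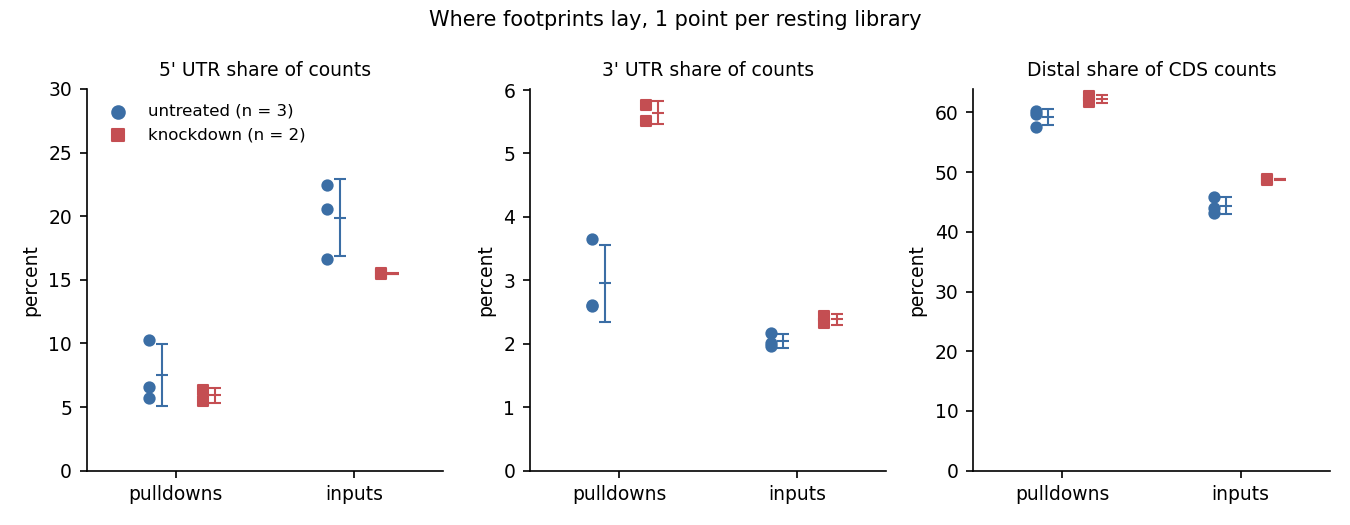
Share of counts (percent) in the 5′ UTR, in the 3′ UTR and, of the CDS counts, past the CDS midpoint, in each resting library of both fractions, with the mean and SD beside the points (untreated n = 3, knockdown n = 2). The 3′ UTR share of the knockdown pulldowns (5.51 and 5.77%) lies above that of the untreated pulldowns (2.60 to 3.65%), while the 5′ UTR shares overlap in pulldowns.

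Gene by gene, 5′ UTR counts were tested in 10053 genes, of which 2 rose (0.0199%) and 18 fell (0.179%), 0.199% in all, with a median of -0.38, which became 0.00324 without the second untreated pulldown. Ttr had no 5′ UTR count in any untreated pulldown and 9.12 and 11 CPM in the knockdown ones (adjusted p = 0.00032), and Rpl29, a ribosomal protein gene, went from 0, 0 and 1.94 CPM to 3.65 and 10.5 CPM (adjusted p = 0.036). Nr4a2, an orphan nuclear receptor and immediate early gene, was at 13.5, 25 and 21.8 CPM against 1.14 and 3.07 CPM (-3.37, adjusted p = 0.016), and its CDS level fell as well, from 80 to 150 CPM to 19.6 and 34.2 CPM (-2.15, adjusted p = 5.55e-05). The receptor tyrosine kinase gene Kit (1.32, 11.3 and 12.1 CPM against none in either knockdown pulldown) and the orphan receptor gene Gpr22 (13, 21 and 10.7 CPM against 1.37 and 0 CPM) fell in the 5′ UTR, each with an adjusted p of 0.016, and both fell in the CDS, by -2.07 and -2.46. The 20 calls became 1 without either knockdown pulldown or without the second untreated one. In simulated counts of the same size, 6% of 4-fold changes in the 5′ UTR were recovered, so smaller changes were not detectable at this depth.

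In depolarized neurons the same comparison of pulldowns called 1053 genes higher (7.99%) and 1437 lower (10.9%), 18.9% of 13180. With the groups of the contrast alone 149 were higher and 73 lower, and there were 836 calls without the first knockdown and 3530 without the first untreated depolarized pulldown. The difference between the resting and the depolarized differences was called in 59 genes (0.448%), of which 57 were higher at rest. Edil3 was among them, with 2.18 at rest and 0.06 when depolarized (difference 2.11, adjusted p = 0.00027), as were Npc2 with 2.65 and -0.66 (3.31, adjusted p = 0.0022), Ssr1 with 1.54 and -0.59 (2.13, adjusted p = 0.00076) and B2m, the light chain of major histocompatibility complex class I, with 2.23 and -0.49 (2.72, adjusted p = 0.0081). Prrc2b, Nup153 and Ylpm1 rose in both states, by 1.99, 2.04 and 1.72 when depolarized. Against the DHPG pulldowns, 1278 genes were higher (9.49%) and 1411 lower (10.5%) in the resting knockdown pulldowns, 20% of 13470. Of the 551 genes that rose against the untreated pulldowns, 250 were also called higher against DHPG and 26 were called lower. Of the 654 that fell, 241 were also called lower and 17 were called higher. The others did not pass the test against DHPG. The knockdown pulldowns serve in both contrasts, which are therefore not independent.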

How the data were processed

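Processed files held whole-number counts of reads per exon segment of each transcript (5′ UTR, CDS and 3′ UTR separately), deposited by the authors as counts with no normalization; use of strand in counting was not given in the sources used here. Segment counts were summed over the longest transcript of each gene, and 66750 of 67238 coding transcripts matched a symbol (99.3%), giving 22443 genes. Group differences were tested with edgeR 4.0.16 (robust quasi-likelihood, TMM, filterByExpr, R 4.3.3) in 1 fit of 20 TurboID-PSD95 libraries in 8 groups, or 26 libraries in 10 groups for DHPG; calls used a false discovery rate of 0.05. The distal and proximal test used the same tool with library as a block, for parts holding at least 20% of a CDS. Genes named were the smallest p (outside the untreated range) and the largest fold (mean of at least 10 CPM) in each direction, those of smallest p beyond the input, in the 5′ UTR and in each list, Eif4g2 and Dlg4; genes shown for profiles were chosen after their values were seen. Members and lists were chosen with earlier results of these data known.

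On simulated counts with 200 changed genes, 19% of genes changed by 2-fold and 68% of those changed by 4-fold were found in pulldowns (12915 genes), 1% and 44% beyond the input (12903 genes), and 29% and 93% by the midpoint test (5252 genes). Replicate numbers did not pair knockdown with untreated pulldowns (r = 0.0474 and 0.0383 for equal numbers). Counts of replicate libraries differed beyond sampling noise, so no library was a copy of another. The chi-square per degree of freedom was 4.46 for the knockdown pair and 9.45 to 18.3 for the untreated pairs. It cannot tell biological from technical replicates, as the noise of library preparation was not measured. Alternatives were the likelihood ratio test, DESeq2 1.42.0, RLE scaling, no filter, fewer or more libraries, another transcript, a CDS length trend and leaving out each library. The edgeR p-values rest on a spread estimated over all libraries of a fit, not on the 2 and 3 compared pulldowns alone. With only the groups of the contrast fitted, 1774 genes were called in pulldowns, against 1205. The exact permutation p-values use only the 2 and 3 libraries compared. As the study's methods say that molecular identifiers were removed from reads but not that duplicates were collapsed, counts may not be independent molecules.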

Additional observations from a re-analysis of the deposited data

Results flagged for a closer look

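The knockdown difference in pulldowns differed between resting and depolarized neurons in 59 genes by the test of the difference itself (edgeR's quasi-likelihood test). The 3 with the smallest p that were higher at rest were Bsg, Nppc and Mesd. Bsg, the membrane protein basigin, was at 437, 576 and 540 CPM in untreated and 1138 and 1664 CPM in knockdown resting pulldowns, but at 502 to 827 CPM and 244 and 245 CPM when depolarized (resting minus depolarized 2.93, adjusted p = 3.0e-05). Nppc, a natriuretic peptide precursor, rose from 20.4 to 26.9 CPM to 129 and 195 CPM at rest, with a depolarized difference of -0.51 (resting minus depolarized 3.26, adjusted p = 0.00026). Mesd, a chaperone of LDL receptor family proteins in the ER, had 1.72 at rest and -1.12 when depolarized (resting minus depolarized 2.84, adjusted p = 0.00027). The 2 genes lower at rest were Nr4a2, with -2.15 at rest and 0.30 when depolarized (resting minus depolarized -2.45, adjusted p = 0.0022), and Nelfcd, a subunit of the negative elongation factor, with -1.07 and 0.48 (resting minus depolarized -1.55, adjusted p = 0.035).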

How the results depend on the processing

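The 1205 calls in pulldowns stayed within 1.5 times under every alternative except the fit of 26 libraries (1976) and leaving out a library (386 to 1090), where a lone knockdown library is assumed to vary like the other groups. For Eif4g2 the call was lost with RLE scaling (-0.58), without the filter (-0.57), with the replicate block (-0.58) and in 4 of the 5 fits that left out a pulldown library (-0.82 to -0.42). The likelihood ratio test gave 780 calls in inputs, 150 for resting minus depolarized and 189 in the 5′ UTR, and DESeq2 gave 905, 147 and 93, and 247 beyond the input. With the groups of the contrast alone, calls were 1979 in inputs, 347 beyond the input, 222 in depolarized pulldowns and 24 for resting minus depolarized, which had 118 without the filter. Leaving out a library gave 58 to 500 calls in inputs, 46 to 124 beyond the input, 836 to 3530 in depolarized pulldowns, 27 to 143 for resting minus depolarized, 1366 to 1937 against DHPG, 1 to 27 in the 5′ UTR and 252 to 612 for the midpoint test. The 5′ UTR share differed by -2.51 to -0.21 percentage points (-1.60 with all libraries) and the 3′ UTR share by 2.51 to 3.04 (2.69). The replicate block gave 1318 calls in pulldowns and 41 in the 5′ UTR, and moved no other count by over 1.5 times (152 beyond the input). Equal numbers do not pair knockdown with untreated pulldowns, nor knockdown pulldowns with inputs (r = 0.0113), but untreated pulldowns and inputs of equal number deviate together (r = 0.504 and 0.233). The main fit took pulldowns and inputs as separate groups and did not model this pairing, also in the test beyond the input. Of the named genes and called list members under all alternatives, 1866 values kept direction and call, 357 lost the call and 1 changed sign, Dlg4 without the second untreated pulldown (-0.0129, against 0.62 without the third and up to 0.71 with the replicate block). The cause was not tested in any of these.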
